A study of Mus musculus with 10 samples.

Results

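Conjugation enzymes and carboxylesterases are the enzymes with which the liver makes drugs, hormones, bilirubin, bile acids and lipids more soluble or splits their esters. They were followed here as the genes whose symbol begins with Ugt1a, Ugt2a, Ugt2b, Ugt3a, Sult, Ces1, Ces2, Ces3 or Ces4, without pseudogenes. Of the 27179 genes of the deposited count table, 59 met that rule by name, and 42 of these had 10 or more counts in at least 5 of the 10 libraries and are the members described below. They comprise 17 UDP-glucuronosyltransferase genes (Ugt), 9 sulfotransferase genes (Sult) and 16 carboxylesterase genes (Ces). The 17 genes below the count minimum were Ces1h, Ces2f, Sult1c1, Sult2a1 to Sult2a6, Sult2b1, Sult3a1, Sult3a2, Sult4a1, Sult6b2, Ugt1a10, Ugt2a1 and Ugt2a2. Just inside the minimum, Sult6b1 had 102 counts over all libraries, and just outside it Ugt1a10 had 75.

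The LKO livers came from 5 male C57BL/6 mice with both Lpcat3 alleles floxed and an Albumin-Cre transgene, and the control livers came from 5 male Lpcat3f/f mice of that strain without Cre. Lpcat3 encodes a lysophosphatidylcholine acyltransferase that places polyunsaturated fatty acids in membrane phospholipids, and the albumin promoter drives Cre mainly in hepatocytes, so that RNA of other liver cells can still carry the gene's transcript. All 10 mice had eaten a NASH diet (a diet that causes steatohepatitis) for 12 weeks, so no group on normal food enters these comparisons, and the labels do not state the age of the mice. Each library is the RNA of 1 whole frozen liver sample, and p-values set the difference between the groups against the spread between these mice.

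UDP-glucuronosyltransferases sit in the membrane of the endoplasmic reticulum and join glucuronic acid from UDP-glucuronic acid to a hydroxyl, carboxyl or amine group. Sulfotransferases of the Sult family work in the cytosol and transfer sulfate from the donor PAPS. Carboxylesterases are endoplasmic reticulum hydrolases that cleave drug esters and also act on stored neutral lipid. All these families are abundant in hepatocytes and are controlled there by receptors of xenobiotics and bile acids and by hepatocyte transcription factors.

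Total counts ranged from 26914124 to 46727182 per library. Levels are in CPM, counts brought to a common library size with TMM factors, which assume that most genes do not differ, and fold changes are log2 of LKO over control from edgeR's quasi-likelihood test, with p-values adjusted by the Benjamini-Hochberg method over 15226 tested genes. The targeted gene Lpcat3 checked the labels: it averaged 31.3 ± 4.65 CPM in LKO livers and 109 ± 13.3 CPM in controls (SD, n = 5 each), a log2 fold change of -1.79. The libraries also differed in ways that genotype does not describe. The leading principal component of log2 CPM took up 56.8% of the variance, and on it control 4 scored 30.2, among the LKO libraries (-8.03 to 82.3), while the other controls scored -52.7 to -30.1. LKO 3 had the highest score of all, 82.3, so values without LKO 3 or without control 4 are given for the results that they moved most.

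No member passed an adjusted p of 0.05 in the comparison of the 5 LKO with the 5 control livers, where 10 of all 15226 tested genes (0.0657%) did. The glucuronosyltransferase gene Ugt1a9 came nearest, with 10.3 ± 3.98 CPM in LKO livers and 3.75 ± 1.09 CPM in controls (SD, n = 5 each). The carboxylesterase genes Ces2b and Ces4a had the most negative log2 fold changes of the 41 members tested, -2.26 and -2.01. At an unadjusted p under 0.05 stood 9 of 41 members, or 22.0%, against 22.3% of all genes, so that the share among the members was near the background. By direction, 2 members were higher in LKO livers at that unadjusted level, against 12.8% of all genes, and 7 members, or 17.1%, were lower, against 9.5% of all genes. These 9 were Ugt1a9 and Ugt1a5 on the higher side and Ugt1a2, Ugt2a3, Sult1c2, Ces1c, Ces2b, Ces3a and Ces4a on the lower side.

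Below 0 stood the log2 fold changes of 34 of 41 members, against 50.5% of all genes, with a median of -0.23 for the members and -0.00 for all genes; under scaling by total counts 19 of 41 members and 16.5% of all genes stood below 0, with medians of 0.01 and 0.24. The choice of scaling thus moved members and all genes together, and the members' median lay 0.22 below that of all genes under either scaling. With LKO 3 left out, 24 of 41 members had a negative log2 fold change and the median was -0.09, against -0.00 for all genes. With control 4 left out, the numbers were 35 of 41 and -0.30, against -0.01 for all genes. The median by family was -0.18 for the 17 Ugt genes, -0.75 for the 8 tested Sult genes and -0.14 for the 16 Ces genes, and with total-count scaling it was 0.05, -0.52 and 0.08. Without LKO 3 the median was -0.076 for Ugt, -0.54 for Sult and -0.0081 for Ces, and without control 1 it was -0.013 for Ces.

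The count of members called depended on the test and on single libraries. DESeq2 called 5 members, Ces2b, Ces4a, Sult1c2 and Ugt1a2 lower and Ugt1a9 higher in LKO livers, where it called 7.72% of all genes. Limma's voom fit with quality weights called 9 members, these 5 with Ces1c, Ces3a and Ugt2a3 lower and Ugt1a5 higher, against 16.2% of all genes. Without control 4, edgeR called 6 members, Ces1c, Ces2b, Ces4a, Sult1c2 and Ugt2a3 lower and Ugt1a9 higher, against 15% of all genes. Without LKO 1 it called Ugt1a9 alone, against 0.558% of all genes. Without both control 4 and LKO 3 it called 10 members, Ces1c, Ces2b, Ces3a, Ces4a, Sult1b1, Sult2a8, Ugt2a3 and Ugt3a1 lower and Ugt1a5 and Ugt1a9 higher, against 15.6% of all genes. At an adjusted p under 0.1 with all 10 libraries, the edgeR calls were Ugt1a9, Ces2b and Ces4a, against 1.94% of all genes. As a share of the 41 tested members these counts were 12.2% with DESeq2, 22.0% with voom, 14.6% without control 4 and 24.4% without control 4 and LKO 3, and whether such a share differs from that of all genes was not tested.

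**Figure D1:**
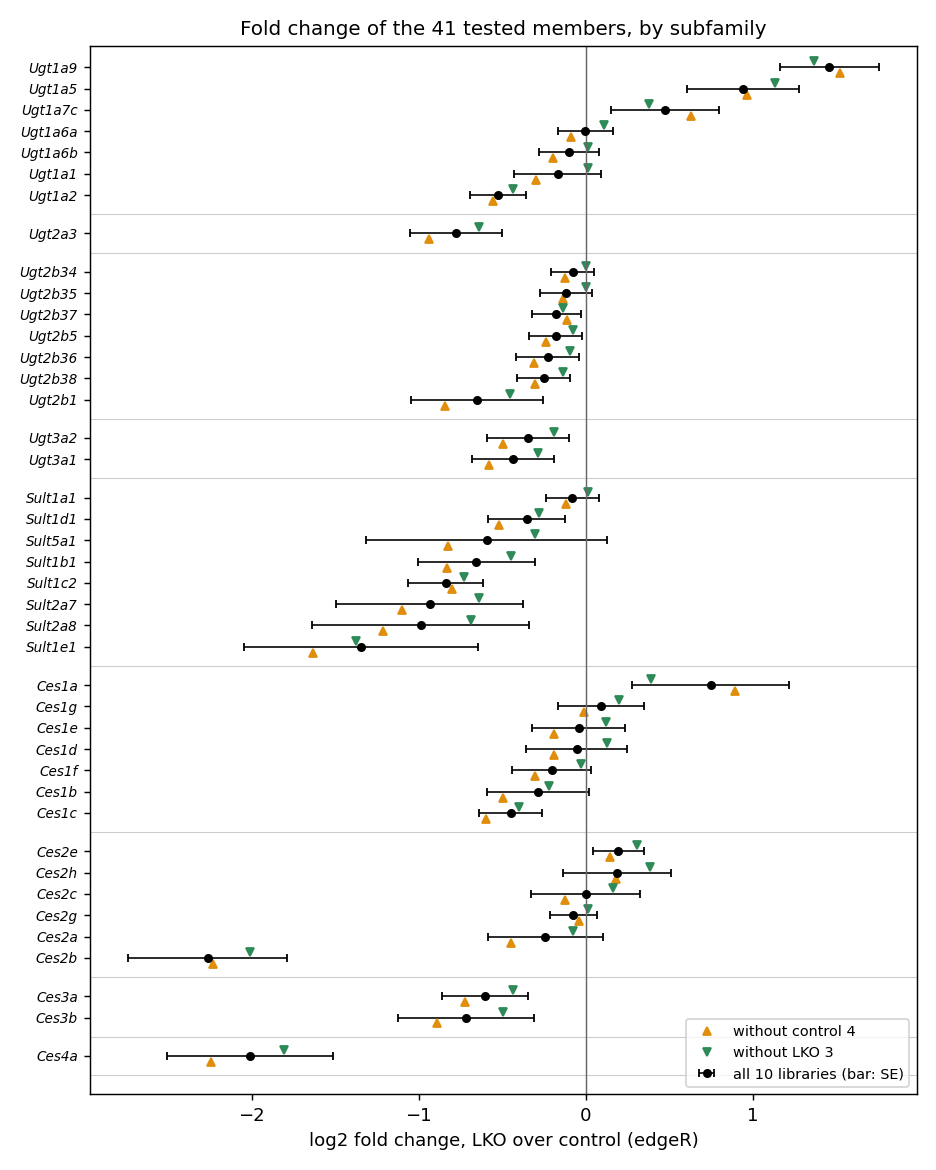
Log2 fold change (LKO over control, TMM scaling, horizontal axis) of the 41 tested members grouped by subfamily, with bars of 1 standard error, and the value without control 4 (triangles) or without LKO 3 (inverted triangles). Most points lie below 0 under this scaling (34 of 41, against 19 of 41 under total-count scaling); Ces2b and Ces4a lie farthest to the left and Ugt1a9 farthest to the right, and most members have a value nearer to 0 without LKO 3.

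The Ugt1a genes form 1 locus on chromosome 1, in which each gene has its own promoter and first exon, spliced to a set of downstream exons that all of them use. The first exon encodes the part of the enzyme that binds the substrate. In the direction of transcription the 7 members lie in the order Ugt1a9, Ugt1a7c, Ugt1a6b, Ugt1a6a, Ugt1a5, Ugt1a2 and Ugt1a1. In part because of the common exons, 52.7% to 95.7% of all stretches of 101 bases, the read length, in each of these genes also occur in another gene. The share was highest for Ugt1a6a, which has 93.85% of its stretches in common with Ugt1a7c alone. Counts of single Ugt1a genes thus depend on how the authors' counting treated such reads. The promoters of the 4 genes on which the comparison in this locus turns are shown for their different starts, each from 250 bases before to 50 bases after the RefSeq transcription start on GRCm38.p6. Capitals mark AGGTCA (a nuclear receptor half-site), GTTAAT (an HNF1 half-site) and GCGTG (an Ah receptor core) on either strand.
Ugt1a9, chr1:88070529-88070828, plus strand: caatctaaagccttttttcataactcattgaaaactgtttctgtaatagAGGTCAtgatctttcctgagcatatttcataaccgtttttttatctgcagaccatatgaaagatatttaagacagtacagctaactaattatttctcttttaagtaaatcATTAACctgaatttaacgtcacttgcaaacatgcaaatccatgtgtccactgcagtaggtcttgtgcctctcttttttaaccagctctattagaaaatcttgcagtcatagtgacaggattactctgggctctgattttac
Ugt1a5, chr1:88165762-88166061, plus strand: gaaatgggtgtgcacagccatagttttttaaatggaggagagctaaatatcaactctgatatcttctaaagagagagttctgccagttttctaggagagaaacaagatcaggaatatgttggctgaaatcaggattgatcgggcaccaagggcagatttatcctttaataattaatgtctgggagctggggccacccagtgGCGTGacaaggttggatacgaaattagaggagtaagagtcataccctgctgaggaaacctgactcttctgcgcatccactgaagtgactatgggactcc
Ugt1a2, chr1:88200361-88200660, plus strand: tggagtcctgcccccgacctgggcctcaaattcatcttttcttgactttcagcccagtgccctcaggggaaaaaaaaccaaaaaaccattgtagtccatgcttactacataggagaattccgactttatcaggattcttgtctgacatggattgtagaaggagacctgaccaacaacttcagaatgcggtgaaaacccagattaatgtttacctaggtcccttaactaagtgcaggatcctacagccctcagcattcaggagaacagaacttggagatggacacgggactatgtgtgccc
Ugt1a1, chr1:88211709-88212008, plus strand: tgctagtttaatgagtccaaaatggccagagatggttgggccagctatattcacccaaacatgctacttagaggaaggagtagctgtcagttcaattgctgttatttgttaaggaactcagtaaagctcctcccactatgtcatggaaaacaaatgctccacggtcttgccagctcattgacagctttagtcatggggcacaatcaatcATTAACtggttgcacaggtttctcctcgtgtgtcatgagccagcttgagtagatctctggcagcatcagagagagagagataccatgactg

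The Ugt1a9 window held AGGTCA 201 bases upstream of the start and GTTAAT, on the minus strand, 91 bases upstream. The Ugt1a5 window held GCGTG 49 bases upstream and the Ugt1a1 window GTTAAT on the minus strand 41 bases upstream. None of these motifs, nor the antioxidant response core TGACNNNGC, stood in the Ugt1a2 window. Of all 32851 promoter windows, 16.3% held AGGTCA, 7.1% GTTAAT, 32.4% GCGTG and 12.4% TGACNNNGC, counted on both strands. Windows were found for 35 of 42 members, 38 windows in all, and 13 held AGGTCA, 8 GTTAAT, 4 GCGTG and 0 TGACNNNGC. A match is a description of letters and says nothing of binding.

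Ugt1a9, the first of the 7 members along the locus, was the one member whose LKO libraries all lay above all controls, which was so for 1.72% of all genes. The human enzyme of that name glucuronidates phenols. Ugt1a9 (NCBI Gene 394434, chromosome 1) had 6.50, 6.17, 12.7, 15.4 and 10.8 CPM in LKO 1 to LKO 5, against 1.89, 3.69, 4.25, 4.45 and 4.47 CPM in controls 1 to 5. Every LKO library exceeded the highest control, and LKO 4 was highest. Its log2 fold change was 1.46 (SE 0.30, adjusted p = 0.0784), and 1.52 (adjusted p = 0.0158) without control 4. Over the libraries left out in turn the log2 fold change ran from 1.26 to 1.59. For Ugt1a9 the adjusted p then ran from 0.0158, without control 4, to 0.218. Without control 4, edgeR called 15% of all genes.

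Ugt1a5 was the other member of the locus that stood higher at the unadjusted level. Ugt1a5 (NCBI Gene 394433, chromosome 1) had 20.5, 23.1, 10.7, 45.9 and 24.9 CPM in LKO 1 to LKO 5, against 10.1, 18.9, 13.8, 13.8 and 8.56 CPM in controls 1 to 5. LKO 4 was far above all others, and LKO 3 lay below 3 of the 5 controls, so the groups overlapped. edgeR gave a log2 fold change of 0.94 (SE 0.33, adjusted p = 0.155), and with 1 library left out it lay between 0.60, without LKO 4, and 1.13. Ugt1a7c averaged 1.59 ± 0.229 CPM in LKO livers and 1.14 ± 0.540 CPM in controls (SD, n = 5 each), with a log2 fold change of 0.47 (SE 0.32, adjusted p = 0.391).

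With TMM scaling all LKO libraries lay below all controls for Ugt1a2, as they did for 2.23% of all genes, whereas with total-count scaling the groups overlapped. Ugt1a2 (NCBI Gene 22236, chromosome 1) had 3.45, 2.59, 2.17, 2.80 and 3.81 CPM in LKO 1 to LKO 5, against 4.15, 4.14, 4.08, 3.93 and 4.98 CPM in controls 1 to 5. The lowest control, at 3.93 CPM, lay just above the highest LKO library, LKO 5. The log2 fold change was -0.52 (SE 0.17, adjusted p = 0.134) and -0.29 under total-count scaling, and DESeq2 gave an adjusted p of 0.0397.

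Ugt1a1, the enzyme that glucuronidates bilirubin, supplied most of the locus's counts. Ugt1a1 (NCBI Gene 394436, chromosome 1) had 296, 264, 103, 269 and 250.2 CPM in LKO 1 to LKO 5, against 284, 267, 309, 168 and 302 CPM in controls 1 to 5. The groups overlapped throughout except for LKO 3, the lowest of all, and control 4 was the lowest control. Its log2 fold change was -0.17 (SE 0.26, adjusted p = 0.718) under TMM scaling and 0.06 under total-count scaling. Ugt1a6a and Ugt1a6b, whose human counterpart glucuronidates planar phenols, averaged 68.3 ± 14.3 and 87.1 ± 19.6 CPM in LKO livers and 68.4 ± 11.9 and 93.6 ± 18.3 CPM in controls, with log2 fold changes of -0.00 and -0.10, and of 0.23 and 0.13 under total-count scaling.

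Within the locus, shares of the summed CPM do not depend on the scaling between libraries. Ugt1a9 made up 2.71 ± 1.72% of that sum in LKO livers and 0.877 ± 0.375% in controls, and Ugt1a5 made up 5.66 ± 2.04% in LKO livers and 3.003 ± 1.14% in controls (SD, n = 5 each). The Ugt1a9 share was 1.26, 1.30, 5.46, 3.06 and 2.49% in LKO 1 to LKO 5, against 0.383 to 1.43% in controls, so the groups overlapped. For Ugt1a5 they overlapped as well, with 3.99 to 9.14% in LKO livers and 1.82 to 4.43% in controls. Ugt1a1 made up 53.7 ± 5.44% in LKO livers and 58.7 ± 4.65% in controls. Shares of 1 sum are not independent, and no test was made on them.

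**Figure D2:**
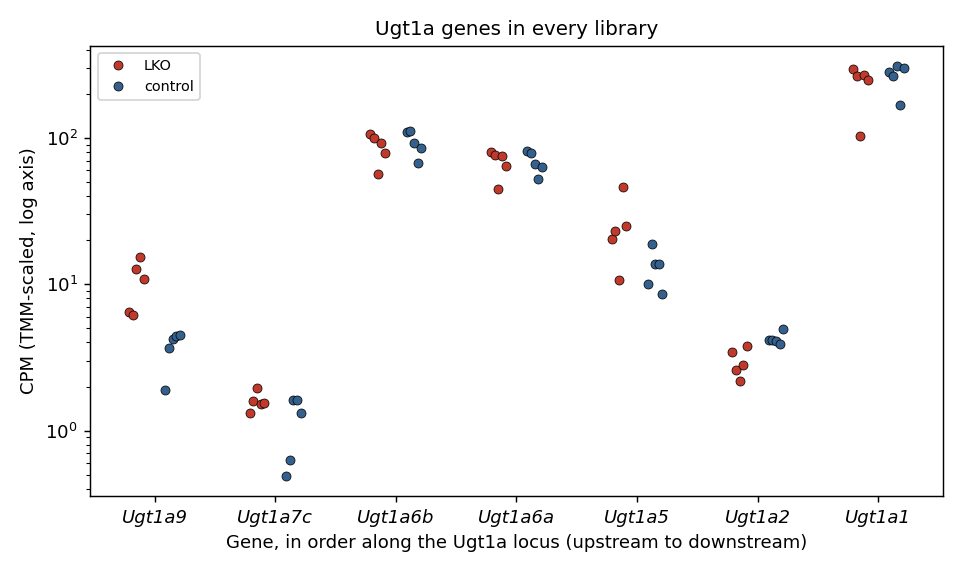
Levels (CPM, log axis) of the 7 Ugt1a genes in their order along the locus, one point per library, LKO left of control. The LKO points of Ugt1a9 (6.17 to 15.4 CPM) lie above all its controls (1.89 to 4.47 CPM), those of Ugt1a2 lie below all its controls with this TMM scaling (not with total counts), and the groups of the other 5 genes overlap.

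The Ugt2 genes encode enzymes that glucuronidate steroids, bile acids and fatty acids, and 8 members on chromosome 5 belong to them. All 8 had a negative log2 fold change under TMM scaling, with a median of -0.20, and 3 of 8 under total-count scaling, with a median of 0.02. Of the 7 Ugt2b genes, 0 had an unadjusted p under 0.05, and Ugt2a3 alone of the 8 did.

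Ugt2a3 (NCBI Gene 72094, chromosome 5) had 160.5, 129, 67.4, 136 and 80.3 CPM in LKO 1 to LKO 5, against 259, 198, 217, 103 and 205 CPM in controls 1 to 5. Control 4 lay among the LKO libraries, and the other 4 controls lay above every LKO library. Its log2 fold change was -0.78 (SE 0.28, adjusted p = 0.155), and -0.94 (adjusted p = 0.0254) without control 4. For Ugt2a3 the adjusted p ran from 0.0254 to 0.317 with 1 library left out. Ugt2b1 followed a like order, with 409, 240.1, 102, 325 and 179.9 CPM in LKO 1 to LKO 5, against 632, 459, 423, 169 and 288 CPM in controls 1 to 5. LKO 3 was the lowest of all and control 4 the next lowest, and the log2 fold change was -0.65 (SE 0.39, adjusted p = 0.338).

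Per kilobase of exon, Ugt2b5 had the highest level of the Ugt2 genes, 259 CPM per kilobase in LKO livers and 293 in controls. It averaged 481 ± 98.4 CPM in LKO livers and 545 ± 69.8 CPM in controls (SD, n = 5 each), with a log2 fold change of -0.18, and 0.05 under total-count scaling. Ugt2b36 followed with 158 CPM per kilobase in LKO livers and 185 in controls, a log2 fold change of -0.23, and 0.00 under total-count scaling. Ugt2b34 averaged 316 ± 46.9 CPM in LKO livers and 334 ± 40.8 CPM in controls, with a log2 fold change of -0.08, and 0.15 under total-count scaling. For Ugt2b38 the log2 fold change was -0.25, and Ugt2b38 and Ugt2b5 have 24.1% and 24.6% of their stretches of 101 bases in common with each other. The 2 remaining genes, Ugt2b35 and Ugt2b37, had log2 fold changes of -0.12 and -0.18, and of 0.10 and 0.038 under total-count scaling. In 5 of the 7 Ugt2b promoter windows stood AGGTCA, against 16.3% of all promoter windows. In Ugt2b5, Ugt2b36, Ugt2b37 and Ugt2b38 it lay 22 to 39 bases upstream, with the same bases on both sides. These matches are therefore not independent of each other.

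The Ugt3a enzymes differ from the others in the sugar they transfer: the human enzymes use N-acetylglucosamine or glucose in place of glucuronic acid. On chromosome 15, Ugt3a1 averaged 38.4 ± 11.7 CPM in LKO livers and 51.9 ± 13.1 CPM in controls and Ugt3a2 199 ± 58.5 CPM in LKO livers and 253 ± 63.5 CPM in controls (SD, n = 5 each). Their log2 fold changes were -0.43 (SE 0.24, adjusted p = 0.306) and -0.35 (SE 0.25, adjusted p = 0.411), and without LKO 3 they were -0.29 and -0.19. In Ugt3a2 the libraries LKO 3 (105.6 CPM) and control 4 (145.8 CPM) lay below all others, and the other libraries of the 2 groups overlapped.

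The sulfotransferases were the family with the most even direction: all 8 tested genes had a negative log2 fold change with TMM scaling, and 7 of 8 with total-count scaling or without LKO 3. Only Sult1c2 had an unadjusted p under 0.05. Sult1c2 (NCBI Gene 69083, chromosome 17) had 2.67, 5.19, 2.46, 3.95 and 3.89 CPM in LKO 1 to LKO 5, against 5.89, 5.09, 8.87, 7.19 and 5.49 CPM in controls 1 to 5. LKO 2 was the one LKO library that reached the controls, just above control 2. edgeR gave a log2 fold change of -0.84 (SE 0.23, adjusted p = 0.108), and -0.80 (adjusted p = 0.0489) without control 4. For Sult1c2 the adjusted p ran from 0.0489 to 0.267 with 1 library left out.

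Sult2a8 is a mouse liver enzyme that sulfates bile acids, and of all Sult members it varied most between libraries at high counts. Sult2a8 (NCBI Gene 76971, chromosome 7) had 447, 304, 13.8, 304 and 200.2 CPM in LKO 1 to LKO 5, against 675, 433, 678, 166 and 565 CPM in controls 1 to 5. LKO 3 was far below every other library, so that the highest LKO library exceeded the lowest 32.3 times, against 4.10 times among controls. The log2 fold change was -0.99 (SE 0.65, adjusted p = 0.375), and -0.69 without LKO 3. Its neighbour Sult2a7 was scarce, with 19, 14, 1, 19 and 6 counts in LKO 1 to LKO 5 and 9, 24, 25, 10 and 35 counts in controls 1 to 5, and a log2 fold change of -0.93 (SE 0.56, adjusted p = 0.333).

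Sult1e1, which sulfates estrogens, had 7, 14, 14, 23 and 5 counts in LKO 1 to LKO 5 and 25, 73, 10, 3 and 22 counts in controls 1 to 5. Control 2 was the highest and control 4 the lowest of all, so the controls spanned the LKO values. Its log2 fold change was -1.34 (SE 0.70, adjusted p = 0.271), and -0.44 without control 2. Sult1b1, which acts on thyroid hormones, had 18.7, 14.3, 4.39, 14.1 and 9.17 CPM in LKO 1 to LKO 5, against 23.4, 22.2, 23.4, 9.38 and 17.4 CPM in controls 1 to 5. LKO 3 was again the lowest, controls 4 and 5 lay among the LKO libraries, and the log2 fold change was -0.66 (SE 0.35, adjusted p = 0.281).

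Per kilobase of exon, Sult1a1, the phenol sulfotransferase, and Sult2a8 had the highest levels of the Sult members, 143 CPM per kilobase in LKO livers and 151 in controls for Sult1a1 and 113 CPM per kilobase in LKO livers and 225 in controls for Sult2a8. Sult1a1 averaged 207 ± 42.1 CPM in LKO livers and 219 ± 33.7 CPM in controls (SD, n = 5 each), with a log2 fold change of -0.08, and 0.14 under total-count scaling. Sult1d1, which in mice sulfates catecholamines, averaged 51.7 ± 11.9 CPM in LKO livers and 66.1 ± 20.1 CPM in controls, with a log2 fold change of -0.35. Sult5a1 ranged from 0.374 to 8.01 CPM in LKO livers and from 1.68 to 9.38 CPM in controls, with a log2 fold change of -0.59, and -0.30 without LKO 3. Sult6b1 averaged 0.323 ± 0.143 CPM in LKO livers and 0.278 ± 0.0465 CPM in controls and did not pass the filter on low counts of the fit, so it was not tested.

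The 16 carboxylesterase members lie on chromosome 8. At an unadjusted p under 0.05 stood Ces1c, Ces2b, Ces3a and Ces4a, all lower in LKO livers. Of the whole family 12 of 16 had a negative log2 fold change with TMM scaling, and 6 of 16 with total-count scaling.

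Ces4a (NCBI Gene 234677, chromosome 8) had 0.848, 1.45, 0.294, 0.662 and 0.644 CPM in LKO 1 to LKO 5, against 4.15, 1.58, 4.49, 0.967 and 4.51 CPM in controls 1 to 5. Controls 2 and 4 lay within or just above the LKO range, and the other 3 controls were at least 4.15 CPM. edgeR gave a log2 fold change of -2.01 (SE 0.49, adjusted p = 0.0999), and -2.24 (adjusted p = 0.0109) without control 4. For Ces4a the adjusted p ran from 0.0109 to 0.259 with 1 library left out. Its counts were 27, 53, 11, 26 and 22 in LKO 1 to LKO 5, against 110, 45, 133, 30 and 194 in controls 1 to 5.

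Ces2b was scarce, and its groups did not overlap. Ces2b (NCBI Gene 234669, chromosome 8) had 7, 15, 2, 14 and 3 counts in LKO 1 to LKO 5, against 39, 26, 41, 37 and 25 counts in controls 1 to 5, which is 0.220, 0.410, 0.0535, 0.356 and 0.0879 CPM in LKO 1 to LKO 5, against 1.47, 0.913, 1.38, 1.19 and 0.582 CPM in controls 1 to 5. The values of LKO 3 and of LKO 5 were at or below the level of 3 counts, 0.0802 and 0.0879 CPM in these libraries. Ces2b passed the count minimum through all 5 controls and 2 LKO libraries. The log2 fold change was -2.26 (SE 0.48, adjusted p = 0.0839), and over the libraries left out in turn it ran from -2.59 to -2.01.

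**Figure D3:**
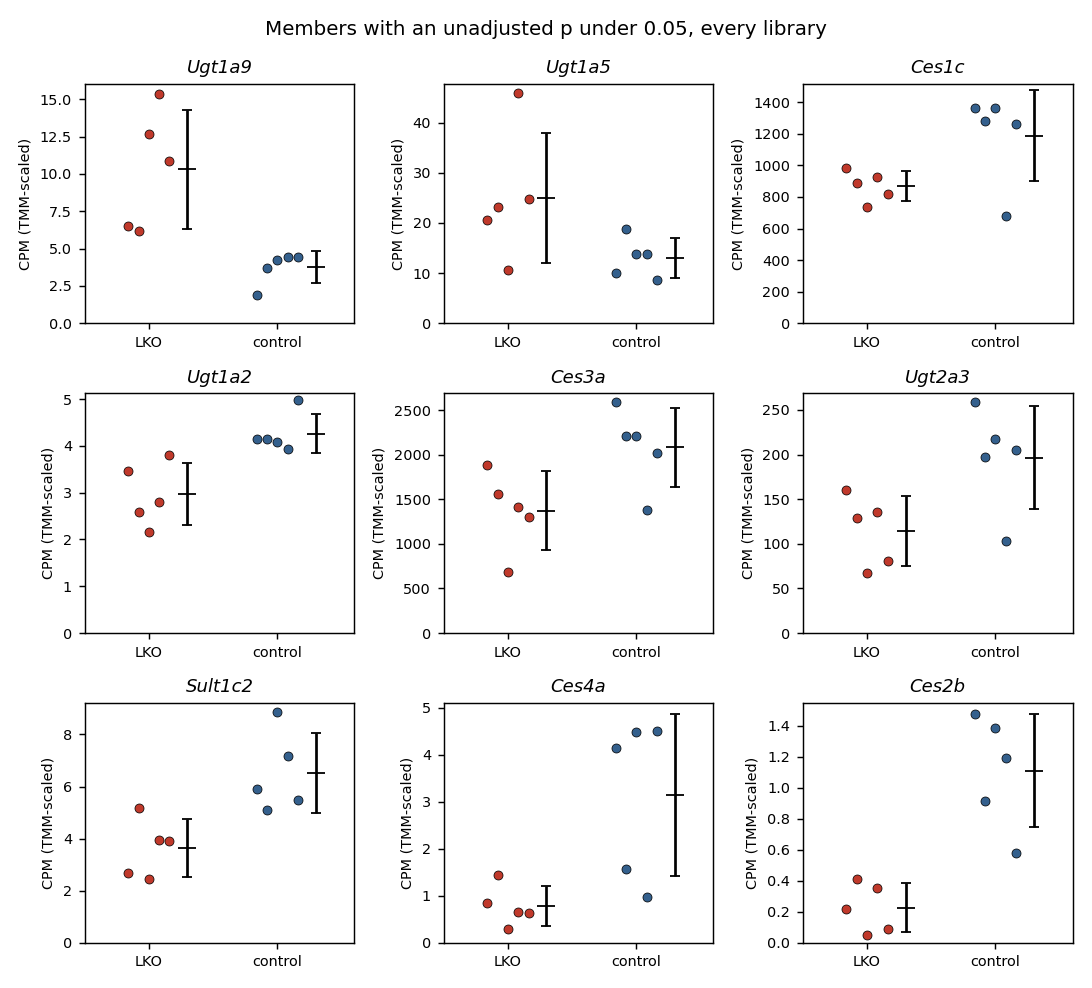
Levels (CPM) of the 9 members with an unadjusted p under 0.05, with one point per library, LKO left of control, and the mean with bars of 1 SD (n = 5 each). With TMM scaling the groups do not overlap for Ugt1a9, Ugt1a2 (where they do with total counts) and Ces2b. Control 4 is the lowest control for Ces1c, Ces3a, Ces4a, Ugt2a3 and, by a small margin, Ugt1a2.

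Ces3a and Ces1c had the highest levels of all members per kilobase of exon. Ces3a (NCBI Gene 382053, chromosome 8) had 1889, 1560.2, 686, 1417 and 1306 CPM in LKO 1 to LKO 5, against 2591, 2211, 2214, 1379 and 2019 CPM in controls 1 to 5. LKO 3 was the lowest, control 4 lay among the LKO libraries, and LKO 1 lay below the other 4 controls. Its log2 fold change was -0.60 (SE 0.26, adjusted p = 0.202), and -0.44 without LKO 3. Ces3a stood at 670.3 CPM per kilobase in LKO livers and 1018 in controls. The neighbouring Ces3b had 251, 293, 60.1, 196 and 112 CPM in LKO 1 to LKO 5, against 456, 272, 369.9, 149 and 255 CPM in controls 1 to 5, with a log2 fold change of -0.72 (SE 0.41, adjusted p = 0.307) and wide overlap.

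Ces1c encodes a carboxylesterase that mouse liver secretes into plasma. Ces1c (NCBI Gene 13884, chromosome 8) had 986, 891, 739, 924 and 817 CPM in LKO 1 to LKO 5, against 1364, 1279, 1364, 679.8 and 1262 CPM in controls 1 to 5. All LKO libraries lay below 4 controls and above control 4, which alone made the groups overlap. edgeR gave a log2 fold change of -0.45 (SE 0.19, adjusted p = 0.199), and -0.60 (adjusted p = 0.0132) without control 4. For Ces1c the adjusted p ran from 0.0132 to 0.378 with 1 library left out.

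The other Ces1 genes include the lipid hydrolases Ces1d, known as triacylglycerol hydrolase, and Ces1g, which acts in hepatic triacylglycerol turnover. Ces1d averaged 233 ± 82.2 CPM in LKO livers and 242 ± 84.3 CPM in controls and Ces1g 146 ± 39.7 CPM in LKO livers and 137 ± 48.5 CPM in controls (SD, n = 5 each), with log2 fold changes of -0.05 and 0.09. Their values turned with 1 library: without LKO 3 Ces1d had a log2 fold change of 0.13, and without control 5 Ces1g had one of -0.05. Ces1f had -0.21, Ces1e -0.04 and Ces1b -0.29 as log2 fold changes, and without LKO 3 they had -0.029, 0.12 and -0.22. Ces1a, at 0.431 ± 0.219 CPM in LKO livers and 0.258 ± 0.168 CPM in controls, had a log2 fold change of 0.75 (SE 0.47, adjusted p = 0.356), and 0.39 without LKO 3, its highest library.

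The Ces2 genes other than Ces2b had log2 fold changes between -0.24 and 0.19. Ces2a, a lipase in mouse liver, averaged 63.9 ± 22.6 CPM in LKO livers and 75.6 ± 34.4 CPM in controls and had a log2 fold change of -0.24, against 0.01 with total-count scaling. Ces2c averaged 83.9 ± 30.4 CPM in LKO livers and 84.0 ± 35.2 CPM in controls, with a log2 fold change of -0.00, and 0.24 with total-count scaling. It has 15.4% of its stretches of 101 bases in common with the pseudogene Ces2d-ps, which the rule leaves out and which averaged 41.2 ± 14.3 CPM in LKO livers and 41.3 ± 16.9 CPM in controls. Ces2e had the most positive log2 fold change of the Ces2 genes, 0.19 (SE 0.15, adjusted p = 0.461), from 163 ± 34.6 CPM in LKO livers and 142 ± 16.6 CPM in controls. It was 0.42 under total-count scaling (adjusted p = 0.109) and 0.30 without LKO 3. Ces2g and Ces2h had log2 fold changes of -0.07 and 0.19, and of 0.01 and 0.38 without LKO 3.

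Low levels of the members gathered in 1 library of each group. Of the 5 LKO libraries LKO 3 was the lowest in 36 of 42 members, or 85.7%, where it was the lowest for 33.4% of all tested genes. Of the 5 controls control 4 was the lowest in 28 of 42 members, or 66.7%, where it was the lowest for 31.7% of all tested genes. With total-count scaling these counts were 31 and 19 of 42 members, against 13.3% and 7.0% of all genes. Exceptions in LKO 3 included Ugt1a9, at 12.7 CPM, Ces1a, whose 0.802 CPM there was its highest level in any library, and Ugt1a7c, whose 1.95 CPM there was likewise its highest.

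Summed over the 42 members, the level was 8378, 7041, 3754, 7279 and 5965 CPM in LKO 1 to LKO 5, against 10241, 9009.8, 9423, 5442 and 8097 CPM in controls 1 to 5. The sum was thus lowest in LKO 3 and next lowest in control 4, and the groups overlapped. By family it averaged 2352 ± 590.5 CPM in LKO livers and 2827 ± 507 CPM in controls for Ugt, 533 ± 216 CPM in LKO livers and 821 ± 253 CPM in controls for Sult, and 3598 ± 952 CPM in LKO livers and 4795 ± 1108 CPM in controls for Ces (SD, n = 5 each).

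**Figure D4:**
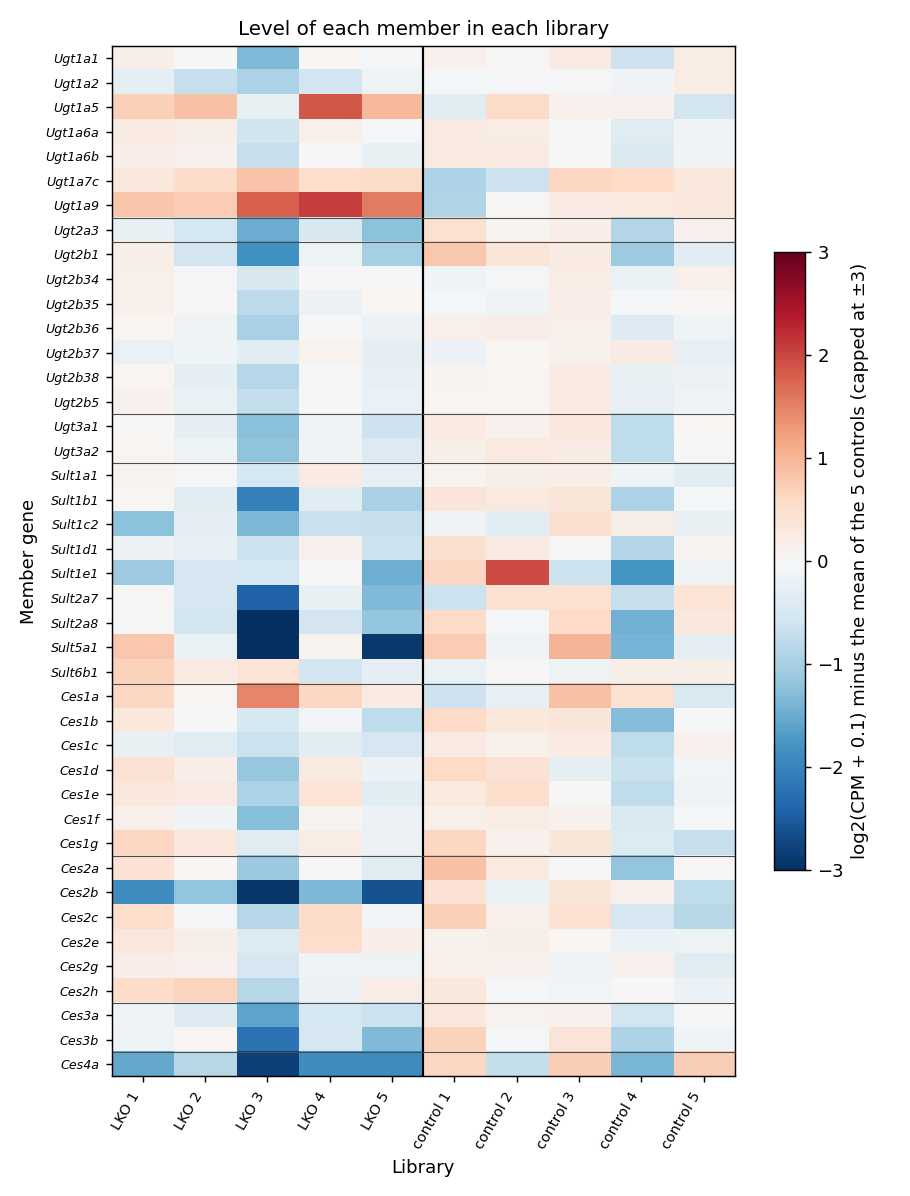
Level of each of the 42 members in each library, as log2(CPM + 0.1) minus the mean of the 5 controls, with LKO libraries left of controls and colours capped at 3 either way. The columns of LKO 3 and control 4 are lower than those of their groups in most rows (the lowest in 36 and in 28 of 42 members), and the row of Ugt1a9 is higher in all LKO libraries.

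Marker levels of several cell types were set beside these libraries. All 8 hepatocyte markers had a negative log2 fold change (6 of 8 under total-count scaling), and their summed level ranged from 36065, in LKO 5, to 53696 CPM in LKO livers, with 37443 CPM in LKO 3, and from 41428, in control 4, to 71520 CPM in controls. All 7 cholangiocyte markers had a positive log2 fold change, with summed levels of 33.1 to 389 CPM in LKO livers, highest in LKO 3, and 26.5 to 165.3 CPM in controls, highest in control 4. Spp1, which is also in the macrophage list, made up most of this sum, with 316 CPM in LKO 3 and 144.5 CPM in control 4. The 9 macrophage markers (8 with a positive log2 fold change) summed to 287 to 833 CPM in LKO livers and 163 to 503 CPM in controls, and the 6 stellate cell and myofibroblast markers (all 6 positive) to 196 to 639 CPM in LKO livers and 88.5 to 343 CPM in controls. LKO 3 and control 4 held the highest of their group in both of these lists. The 6 cell cycle genes (all 6 positive) summed to 33.3 to 149.7 CPM in LKO livers and 8.43 to 57.3 CPM in controls, and the 6 endothelial markers (all 6 positive) to 306 to 502 CPM in LKO livers and 305 to 378 CPM in controls. Within their groups, LKO 3 and control 4 held the highest cell cycle sum but the lowest endothelial sum. The only marker of the hepatocyte, cholangiocyte, macrophage and stellate cell lists at 0 in any library was Cftr, a cholangiocyte gene, in control 1.

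Pericentral hepatocyte markers, where many conjugation enzymes are concentrated, summed to 2525 CPM in LKO 3 and to 7984 to 11197 CPM in the other LKO livers, and to 5993 CPM in control 4 and 12124 to 13371 CPM in the other controls. Of the 8 pericentral markers 6 had a negative log2 fold change (5 under total-count scaling), and Cyp2e1 made up most of the sum, with 4270.3 CPM in control 4 and 9532 to 10423 CPM in the other controls, while Axin2 had 20.1 CPM in control 4 and 11.9 to 21.7 CPM in the other controls. The 8 periportal markers, of which 6 had a negative log2 fold change (5 under total-count scaling), summed to 2395, in LKO 5, to 4554 CPM in LKO livers and 2964 to 4529 CPM in controls. The part of these markers in the members' differences was not tested. In RNA of whole liver, fewer cells of a type and less RNA per cell cannot be told apart.

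The titles of the samples hold a code whose meaning the labels do not state, and only the code A54 occurs in both groups, in LKO 1, LKO 2 and control 1. Within it, 30 of 41 tested members were lower in the LKO libraries, against 50.4% of all tested genes. For the 9 members with an unadjusted p under 0.05, whose choice rests in part on these 3 libraries, the log2 ratio of the mean of 2 LKO libraries to control 1 was 1.75 for Ugt1a9, 1.11 for Ugt1a5, -0.46 for Ugt1a2, -0.84 for Ugt2a3, -0.58 for Sult1c2, -0.54 for Ces1c, -2.23 for Ces2b, -0.59 for Ces3a and -1.86 for Ces4a. With 1 control this has no replicate check. Control 1 also had the highest summed level of the 42 members of all 10 libraries, 10241 CPM. Its score on the leading principal component, -52.7, was the lowest. The other codes each occur in 1 group only, so that code and genotype cannot be told apart there.

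Genes that supply the cosubstrates were read from the same fit. Of the 6 genes of UDP-glucuronic acid supply 0 passed the adjusted threshold, 2 had a positive and 4 a negative log2 fold change (3 under total-count scaling), and the median was -0.15. DESeq2 and voom called 1 gene each of this list, or 16.7%, against 7.72% and 16.2% of all genes. Ugdh, which makes UDP-glucuronic acid, averaged 129.5 ± 9.91 CPM in LKO livers and 107 ± 9.26 CPM in controls (SD, n = 5 each), with a log2 fold change of 0.27 (SE 0.09, adjusted p = 0.137). With TMM scaling every LKO library lay above every control, as for 1.72% of all genes, and with total counts the groups overlapped. Slc35d1, which carries UDP-glucuronic acid into the endoplasmic reticulum, averaged 56.5 ± 9.74 CPM in LKO livers and 75.4 ± 15.6 CPM in controls, with a log2 fold change of -0.42 (SE 0.16, adjusted p = 0.165).

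Of the 10 tested genes of PAPS supply and use (11 listed) 0 passed, 3 had a positive and 7 a negative log2 fold change (3 under total-count scaling), and the median was -0.17. Without control 4, edgeR called 3 of the 10 (30%, against 15% of all genes), all lower in LKO livers. With all libraries DESeq2 called 2 (20%, against 7.72% of all genes). Tpst1, which sulfates tyrosines of secreted proteins, averaged 6.46 ± 1.12 CPM in LKO livers and 9.05 ± 1.23 CPM in controls, with a log2 fold change of -0.49 (SE 0.15, adjusted p = 0.125). Every LKO library lay below every control with TMM scaling, as for 2.23% of all genes, but not with total counts. Slc26a1, a sulfate transporter, had a log2 fold change of -0.46 (SE 0.14, adjusted p = 0.132). Without control 4 the adjusted p was 0.0384 for Tpst1 and 0.0314 for Slc26a1. Of the 18 tested genes of other conjugation enzymes (21 listed) 0 passed, 3 had a positive and 15 a negative log2 fold change (12 under total-count scaling), and the median was -0.34. DESeq2 called 2 genes of this list (11.1%) and voom 3 (16.7%), against 7.72% and 16.2% of all genes. edgeR called 1 (5.56%) without control 4 and 4 (23.5%) without control 4 and LKO 3, against 15% and 15.6% of all genes. In that list Tpmt, which methylates thiopurine drugs, averaged 47.8 ± 11.5 CPM in LKO livers and 78.3 ± 18.0 CPM in controls, with a log2 fold change of -0.71 (SE 0.20, adjusted p = 0.11) and an adjusted p of 0.0254 without control 4. With TMM scaling all its LKO libraries lay below all controls, as for 2.23% of all genes, and with total counts the groups overlapped. As3mt, which methylates arsenic, averaged 37.5 ± 6.51 CPM in LKO livers and 25.8 ± 5.47 CPM in controls, with a log2 fold change of 0.54 (SE 0.16, adjusted p = 0.126). Its LKO libraries all lay above all controls with TMM scaling, as for 1.72% of all genes, but not with total counts.

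Of the 16 tested other esterases and hydrolases (18 listed) 0 passed, 4 had a positive and 12 a negative log2 fold change (3 under total-count scaling), and the median was -0.09. An unadjusted p under 0.05 was found for 4 of the 16, all higher in LKO livers, which is 25.0% against 12.8% of all genes. Voom called 2 genes of this list (12.5%, against 16.2% of all genes), and edgeR without control 4 called 1 (6.25%, against 15% of all genes). All of these were higher in LKO livers. Nceh1, a neutral cholesterol ester hydrolase, averaged 47.3 ± 8.96 CPM in LKO livers and 35.1 ± 3.85 CPM in controls, with a log2 fold change of 0.43 (SE 0.14, adjusted p = 0.137). Lipa, the lysosomal acid lipase, averaged 342 ± 45.2 CPM in LKO livers and 267 ± 42.6 CPM in controls, with a log2 fold change of 0.36 (SE 0.13, adjusted p = 0.159), and 0.46 (adjusted p = 0.0255) without control 4.

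Of the 23 receptors and factors that control drug metabolism 0 passed, 6 had a positive and 17 a negative log2 fold change (12 under total-count scaling), and the median was -0.23. DESeq2 called 3 of the 23 (13%) and voom 4 (17.4%), against 7.72% and 16.2% of all genes. edgeR called 1 (4.35%) without control 4 and 4 (17.4%) without control 4 and LKO 3, against 15% and 15.6% of all genes. All these calls in the list were lower in LKO livers. Nr1h4, the bile acid receptor FXR, had 132, 132, 86.7, 134 and 114 CPM in LKO 1 to LKO 5, against 154, 161, 161, 155 and 159 CPM in controls 1 to 5. With TMM scaling the controls lay close together. Every LKO library lay below them all, as for 2.23% of all genes, but with total counts the groups overlapped. The log2 fold change of Nr1h4 was -0.40 (SE 0.12, adjusted p = 0.122). Bcl6, a repressor with a part in sex-biased liver gene expression, averaged 22.6 ± 8.18 CPM in LKO livers and 45.2 ± 16.8 CPM in controls, with a log2 fold change of -0.996 (SE 0.30, adjusted p = 0.125), and -1.16 (adjusted p = 0.0178) without control 4. Under total-count scaling the medians of the 5 lists were 0.08, 0.07, -0.10, 0.16 and -0.01 in the order given here, beside 0.24 for all genes.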

How the data were processed

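Bulk RNA sequencing of whole liver from 5 LKO and 5 control mice was analysed. Per the labels' protocols, RNA was extracted with TRIzol, depleted of ribosomal RNA (FastSelect HMR), made into stranded Kapa Hyper libraries and sequenced as single reads of 101 cycles. The authors deposited raw counts per NCBI Gene number. Use of bcl2fastq 2.20, of DESeq2 and of the build GRCm39 is recorded in the submitters' processing notes. Aligner, counting tool and strand setting were not given in the sources used, so reads from exons that genes have in common may have been split or dropped. All 10 columns were matched to samples by name, and 0 were left over.

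A RefSeq table of GRCm38.p6 gave symbols to 25275 of 27179 genes. The remaining genes, with 0.693% of counts, were tested too. Promoter sequences came from RefSeq on GRCm38.p6. Exon lengths and common stretches of 101 bases came from the GENCODE M21 transcripts, not from the authors' annotation.

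Tests were run in edgeR 4.0.16 under R 4.3.3 (filterByExpr, TMM, glmQLFit with the legacy estimate, glmQLFTest, two-sided, genotype only), with Benjamini-Hochberg adjustment over 15226 genes and a threshold of 0.05. Replicates varied with a common biological coefficient of 0.242. A level of 3 counts was 0.0764 to 0.0942 CPM in LKO libraries and 0.0698 to 0.113 CPM in controls, and intervals of this kind cover counting error only. Alternatives used DESeq2 1.42.0, limma 3.58.1 (voom), other scalings and filters, a covariate for the title code, a replicate block and libraries left out. The scripts were tested on simulated counts. No 2 libraries of a group agreed within sampling noise (lowest chi-square per degree of freedom 34.7 in LKO and 49.9 in control).

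The members and lists were chosen with earlier results of these data known, so no test was made over a list. In each family the text names the 4 members with the smallest p and the 2 with the highest CPM, in each pathway list up to 2 genes with the smallest p, and other members by range or where a gap, a zero or common sequence made it needed.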

Additional observations from a re-analysis of the deposited data

Results flagged for a closer look

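In groups of 5 libraries, a highest or lowest library was marked when its gap to the nearest other library was too large a part of the group's range for Dixon's 95% criterion. Of 94 groups of levels, 4 were marked, and chance marks about 1 group in 20. Ugt1a1 was lowest in LKO 3, at 103 CPM. Ugt2b36 was also lowest in LKO 3, at 176 CPM. Ces1c was lowest among the controls in control 4, at 679.8 CPM. Ugt1a2 was highest among the controls in control 5, at 4.98 CPM.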

How the results depend on the processing

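The number of genes called was 10 of 15226 with all libraries, 1175 with DESeq2, 2460 with voom, 31 with no filter, 20 when 1 CPM was required in 5 libraries, 296 at an adjusted p under 0.1, 2363 without control 4 and LKO 3 together, and 2 to 2296 with 1 library left out, highest without control 4. With a covariate for the title code, the genotype effect rests on code A54 alone, that is LKO 1 and LKO 2 against control 1. Lpcat3 then had a log2 fold change of -1.99. With 1 control, calls under that fit are not read as a check on all 10 libraries. The number of members called was 0 with all libraries, 5 with DESeq2, 9 with voom, 3 at an adjusted p under 0.1, 10 without control 4 and LKO 3 together, and 0 to 6 with 1 library left out, 1 without LKO 1 and 6 without control 4. Total-count scaling and the joint removal of control 4 and LKO 3 were added after seeing the data. Under total-count scaling 9 of 12 calls were higher in LKO livers, against 4 of 10 with TMM.

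The replicate numbers did not pair the samples: deviations of libraries with the same number correlated at 0.419, 0.208, -0.234, -0.399 and -0.018, and a fit with the replicate number as a block called 2 genes and 0 members.

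Of 856 values of the 41 tested members under alternatives, 765 kept direction and side of the threshold, 31 passed it where all libraries did not, and 60, in 17 members, changed sign. Total-count scaling gave log2 fold changes of 0.061 for Ugt1a1, 0.23 for Ugt1a6a, 0.13 for Ugt1a6b, 0.0043 for Ugt2b36, 0.048 for Ugt2b5, 0.15 for Ugt2b34, 0.098 for Ugt2b35, 0.038 for Ugt2b37, 0.14 for Sult1a1, 0.18 for Ces1d, 0.19 for Ces1e, 0.018 for Ces1f, 0.012 for Ces2a, 0.24 for Ces2c and 0.14 for Ces2g. The covariate for the title code compares only LKO 1 and LKO 2 with control 1. It gave 0.18 for Ugt2b34, 0.14 for Ugt2b35, 0.023 for Ugt2b37, 0.52 for Sult2a7, 0.027 for Ces2g and -0.12 for Ces1g. Values near 0 also turned for Ces2c, 0.025 with upper-quartile scaling, 0.0050 with no filter, 0.0091 with the 1 CPM requirement, 0.029 with the replicate block and 0.043 without control 4 and LKO 3, for Ugt1a6a, 0.025 with upper-quartile scaling, 0.020 with voom, 0.0016 with no filter, 0.0074 with the 1 CPM requirement and 0.029 without control 4 and LKO 3, and for Ces2g, 0.021 with voom and 0.047 without control 4 and LKO 3. With 1 library left out the values ran from -0.19 to 0.13 for Ces1d, -0.19 to 0.12 for Ces1e, -0.052 to 0.26 for Ces1g, -0.45 to 0.014 for Ces2a, -0.17 to 0.20 for Ces2c, -0.15 to 0.013 for Ces2g, -0.17 to 0.012 for Sult1a1, -0.30 to 0.015 for Ugt1a1, -0.087 to 0.11 for Ugt1a6a, -0.20 to 0.013 for Ugt1a6b, -0.14 to 0.00012 for Ugt2b34 and -0.20 to 0.0018 for Ugt2b35. The cause of these changes of sign and of the different numbers of calls was not tested. Members near the level of 3 counts, Ces2b, Sult2a7, Sult1e1, Ces1a and Sult6b1, are limited by depth.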
